A study of Mus musculus with 14 samples.

Results

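The astrocyte transporter, junction and filament genes described here are Slc1a2, Slc1a3, Glul, Aldoc, Gja1, Aqp4, S100b, Gfap and Vim. Every probe set whose platform symbol is one of these 9 genes was taken, which gave 23 of the 22690 probe sets on the array. The 9 genes stand among 12393 genes with at least 1 probe set of their own. Probe sets were taken by gene name alone, with no filter on low signal, so all 23 were tested. The first 7 genes serve the everyday work of astrocytes and held 18 probe sets, while the filament genes Gfap and Vim, usual markers of reactive astrocytes, held 5.

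Total RNA of striatum was measured on an Affymetrix mouse array in R6/2 mice and in wild-type mice. Both genotypes were of a CBA and C57BL/6 mixed background, were 6 weeks old, and had received saline 30 to 60 minutes before they were killed, as controls of drug studies. R6/2 mice carry a transgene for the first exon of human huntingtin with an expanded CAG repeat, under the human gene's promoter, so that expression is not limited to a single cell type. The title prefixes M.C and Mith were taken as cohorts, with 4 R6/2 and 4 wild-type arrays in M.C and 3 R6/2 and 3 wild-type arrays in Mith. R6/2 replicates 1 to 4 and wild-type replicates 1 to 4 are M.C arrays, and replicates 5 to 7 of each genotype are Mith arrays. Whether each array came from its own animal is not in the labels, and the p-values therefore cover the spread of these arrays, which may be technical.

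Astrocytes clear glutamate from the synapse through the transporters encoded by Slc1a2 (GLT-1) and Slc1a3 (GLAST), and glutamine synthetase (Glul) turns it into glutamine that neurons take up again. Gap junctions of connexin 43 (Gja1) couple astrocytes to each other, and the water channel aquaporin-4 (Aqp4) sits in their endfeet on blood vessels. Injured or inflamed brain tissue is known for astrocytes with more Gfap and vimentin, and in the striatum of Huntington's disease models lower GLT-1 and a lower astrocytic potassium conductance have been described.

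In R6/2 striatum at 6 weeks, probe sets of Gja1, Slc1a3, Glul and Aqp4 were called lower than in wild-type. No probe set of Gfap or Vim was called. Log2 differences were -0.16 and -0.24 for Gfap and 0.05 to 0.14 for Vim. No test compared these filament genes with the other members. Gja1 fell to 60.4% of wild-type on its most changed probe set, and called probe sets of Glul, Slc1a3 and Aqp4 fell to 63.4%, 76.4% and 73.2%. Over both cohorts 6 of 23 probe sets were called lower and 0 higher, at an adjusted p under 0.05 in limma over all probe sets, where 2.55% of all probe sets were called and 2.19% were called lower. The median log2 difference of the 23 was -0.27, with 18 below 0. That of all 22626 probe sets tested was 0.01, with 45.2% below 0. Slc1a2, Aldoc and S100b had no called probe set. All 6 calls were on probe sets other than the representative of their gene, which is its brightest one, passing over those marked as able to cross-hybridise where another existed. By representatives limma called 0 of the 9 genes, with 5 at an unadjusted p under 0.05, a lowest adjusted p of 0.0510 (Slc1a3) and a median of -0.27. Among all 12393 genes read that way, 2.08% were called lower and 1841 had an unadjusted p under 0.05. In whole tissue, fewer astrocytes and less RNA per astrocyte cannot be told apart.

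Values are log2 signals on a common array median, and differences are R6/2 minus wild-type on the log2 scale with the standard error of the fit. Array medians as deposited ran from 7.07 to 7.17. R6/2 replicate 4 stood apart, with the lowest mean Spearman correlation with its cohort, 0.981, against 0.986 or more for the others. RNA integrity, read as Actb 3′ signal minus Actb 5′ signal on the control probe sets, was 0.61 ± 0.18 in R6/2 and 0.37 ± 0.14 in wild-type (SD, n = 7 each). With that difference as a covariate 56 of all probe sets and 0 of the 23 were called. Values under it are given beside the results for some of the member probe sets, not for all. Projection neuron markers, which define striatum, had an array mean of 9.62 to 10.05 in R6/2 and 9.92 to 10.72 in wild-type over 8 measured genes.

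**Figure D1:**
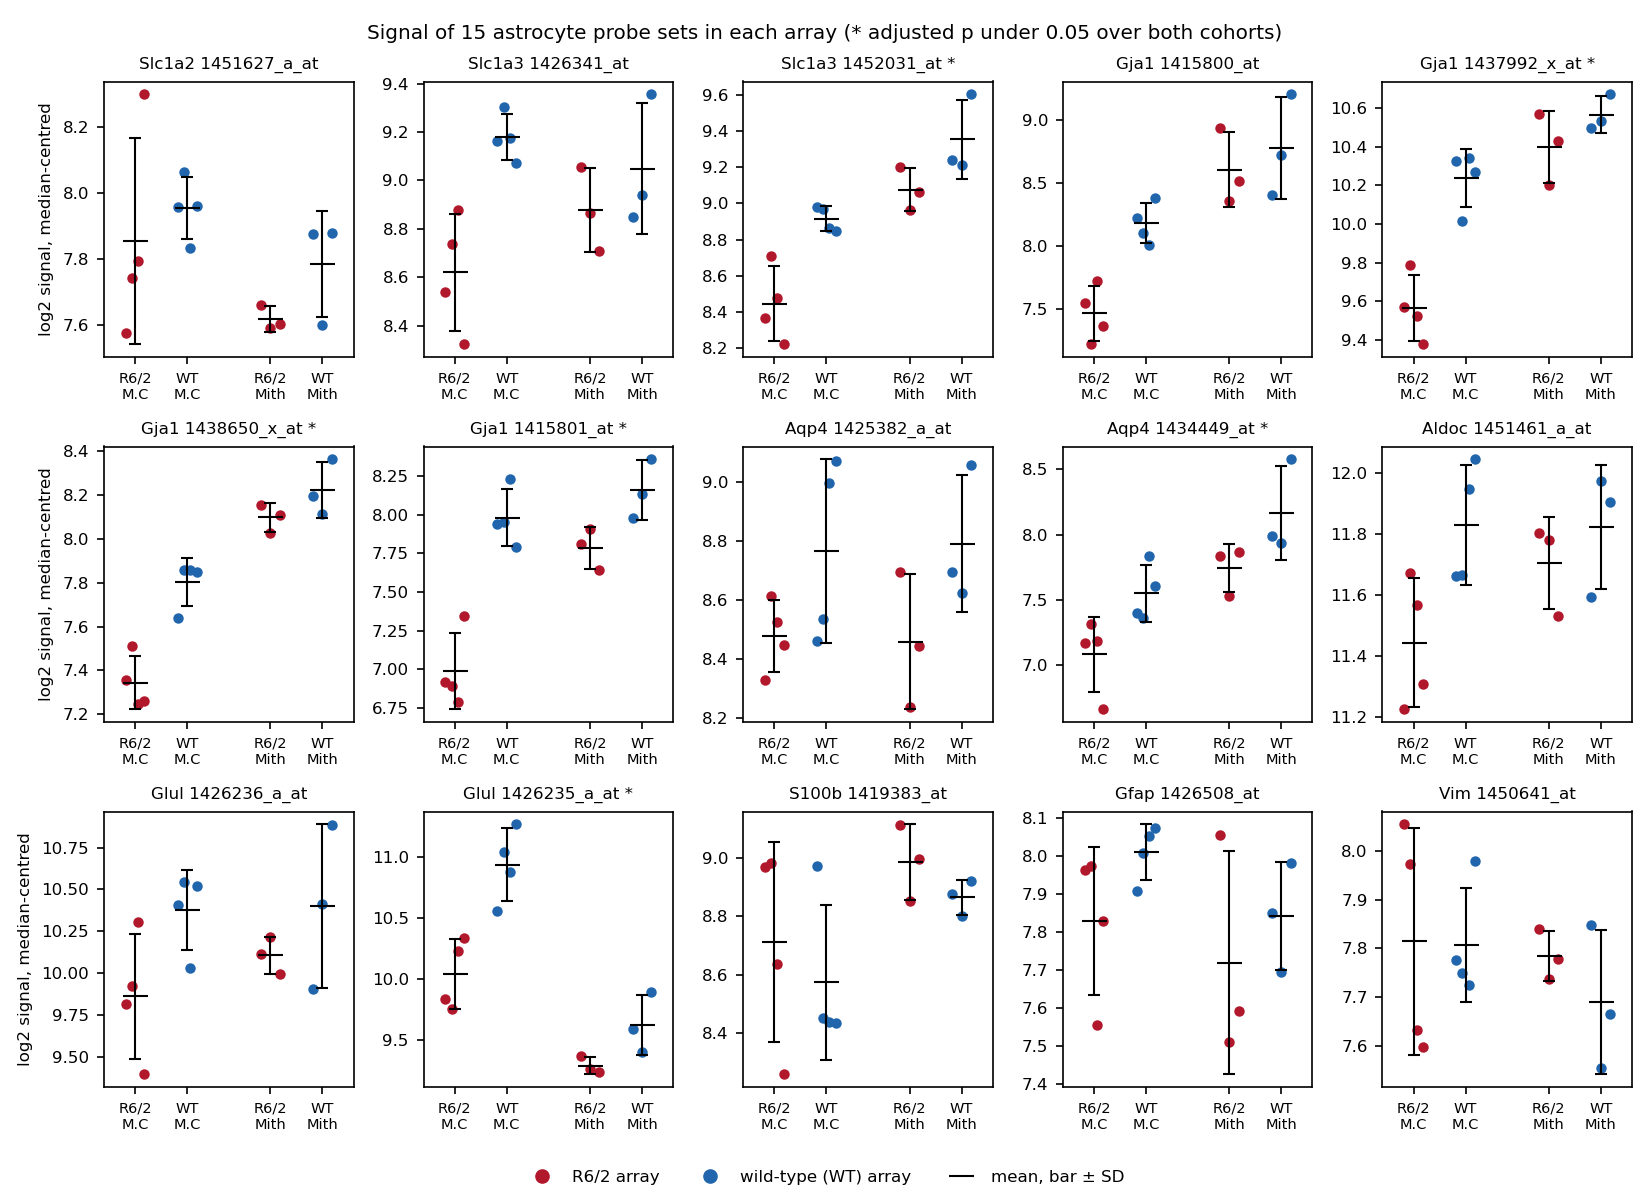
Median-centred log2 signal in each of 14 arrays for the 15 probe sets that were called or represent their gene, by genotype and cohort, with R6/2 in red left of wild-type in blue and bars for the mean ± SD. For Gja1 1415801_at the M.C arrays lie between 6.79 and 7.35 in R6/2 and between 7.79 and 8.23 in wild-type, while Gfap and Vim overlap in both cohorts.

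The promoter sequences show the DNA just before the start of 3 genes with a probe set called lower and of Gfap, which had none. They come from the RefSeq annotation of mouse build GRCm38.p6, where 8 of the 9 genes were matched (Aqp4 was not). Each is the 250 bases before the annotated start, read on the gene's strand. Capitals mark every match, on either strand, to TATAAA (the TATA box), CCAAT (the CCAAT box), GGGCGG (a GC box), TGANTCA (the core bound by AP-1 proteins) or TTCNNNGAA (the core bound by STAT proteins).
Gja1: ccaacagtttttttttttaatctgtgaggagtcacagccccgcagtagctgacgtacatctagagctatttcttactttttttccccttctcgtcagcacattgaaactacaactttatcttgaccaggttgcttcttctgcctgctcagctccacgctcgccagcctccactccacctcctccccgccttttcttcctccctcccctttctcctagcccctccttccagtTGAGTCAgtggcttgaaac
Slc1a3: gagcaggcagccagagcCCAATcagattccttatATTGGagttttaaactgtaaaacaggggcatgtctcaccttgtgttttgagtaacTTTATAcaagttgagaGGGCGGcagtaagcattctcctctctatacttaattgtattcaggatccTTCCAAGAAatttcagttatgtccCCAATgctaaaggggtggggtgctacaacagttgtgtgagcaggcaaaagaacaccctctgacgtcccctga
Glul: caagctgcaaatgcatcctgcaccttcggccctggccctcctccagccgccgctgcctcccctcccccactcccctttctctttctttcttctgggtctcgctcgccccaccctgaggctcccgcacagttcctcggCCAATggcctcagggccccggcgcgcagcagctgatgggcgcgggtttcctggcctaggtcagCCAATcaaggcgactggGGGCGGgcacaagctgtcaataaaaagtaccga
Gfap: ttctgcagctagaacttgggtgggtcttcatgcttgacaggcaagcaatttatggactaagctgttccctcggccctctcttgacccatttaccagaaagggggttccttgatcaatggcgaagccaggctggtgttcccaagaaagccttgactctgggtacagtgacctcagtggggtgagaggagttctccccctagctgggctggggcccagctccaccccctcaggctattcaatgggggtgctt
The Gja1 stretch, chr10:56377050-56377299 on the plus strand, held 1 TGANTCA match, at -19 to -13 from the start. The Slc1a3 stretch, chr15:8710808-8711057 on the minus strand, held 3 CCAAT matches with 1 match of TATAAA, 1 of GGGCGG and 1 of TTCNNNGAA, the last at -96 to -88. The Glul stretch, chr1:153899679-153899928 on the plus strand, held 2 CCAAT matches and 1 GGGCGG match, and the Gfap stretch, chr11:102897201-102897450 on the minus strand, held none of the 5 motifs. Among 32851 promoters, windows of the same length held TATAAA in 12.4%, CCAAT in 33.8%, GGGCGG in 32.7%, TGANTCA in 6.75% and TTCNNNGAA in 7.02%. No motif was shared by Gja1, Slc1a3 and Glul. A match describes letters only, and a window without one says nothing about the factor.

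Slc1a3 encodes GLAST, the glutamate transporter of the same family as GLT-1, and 1 of its 3 probe sets was called lower. For 1452031_at the M.C arrays read 8.37, 8.71, 8.48 and 8.22 in R6/2 and 8.98, 8.97, 8.86 and 8.85 in wild-type. In Mith they read 9.20, 8.96 and 9.06 in R6/2 and 9.24, 9.21 and 9.61 in wild-type. Every R6/2 array lay below every wild-type array of its cohort, by a narrow gap in Mith. The difference over both cohorts was -0.39 ± 0.08 (n = 7 each, limma adjusted p = 0.0177), and the call held with each array left out in turn. With the Actb covariate it was -0.42 ± 0.11 (adjusted p = 0.130).

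The other Slc1a3 probe sets had the same sign. The brightest without cross-hybridisation marks, 1426341_at, had 8.54, 8.74, 8.88 and 8.32 in R6/2 and 9.16, 9.30, 9.18 and 9.07 in wild-type in M.C, with no overlap. Its Mith arrays, 9.06, 8.86 and 8.71 in R6/2 and 8.85, 8.94 and 9.36 in wild-type, overlapped. The difference of -0.39 ± 0.10 fell just short of a call (limma adjusted p = 0.0510). It was called after quantile normalization (adjusted p = 0.0382), on the deposited scale (0.0471), with array weights (0.0140), with trended and robust variances (0.0494) and among the brighter probe sets (0.0397), as well as without R6/2 replicate 5 (0.0261), wild-type replicate 5 (0.0173) or wild-type replicate 6 (0.0387). The remaining one, 1426340_at, was at -0.20 ± 0.10 (adjusted p = 0.342), with R6/2 replicate 4 lowest at 8.22 and the other R6/2 arrays between 8.66 and 8.97. The mean of the 3 probe sets was called, at 79.7% of wild-type (-0.33 ± 0.09, limma adjusted p = 0.0465).

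Slc1a2 encodes GLT-1, the main glutamate transporter of the forebrain, and was read by a single probe set, 1451627_a_at. In M.C its signal was 7.58, 7.74, 7.80 and 8.30 in R6/2 and 7.96, 8.06, 7.83 and 7.96 in wild-type. In Mith it was 7.66, 7.59 and 7.60 in R6/2 and 7.88, 7.60 and 7.88 in wild-type. In M.C 3 R6/2 arrays lay below all wild-type arrays, while R6/2 replicate 4, the array that stood apart, was the highest of all 14. The difference was -0.13 ± 0.09 (95% interval -0.32 to 0.06, n = 7 each, limma adjusted p = 0.538) and was not called. Without R6/2 replicate 4 it was -0.21 ± 0.06 (adjusted p = 0.0660), and with the Actb covariate it was 0.04 ± 0.10, on the other side of 0.

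Glul encodes glutamine synthetase, which joins ammonia to glutamate. The M.C arrays of 1426235_a_at read 9.83, 9.75, 10.23 and 10.33 in R6/2 and 10.56, 11.04, 10.87 and 11.27 in wild-type. The Mith arrays read 9.37, 9.26 and 9.23 in R6/2 and 9.58, 9.40 and 9.89 in wild-type. All R6/2 arrays lay below all wild-type arrays of their cohort, and the gap between the groups was wider in M.C. The difference was -0.66 ± 0.13 (n = 7 each, limma adjusted p = 0.0128), called with each array left out in turn. With the Actb covariate it was -0.40 ± 0.14 (adjusted p = 0.284).

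The second Glul probe set, 1426236_a_at, was also lower but more scattered. It had 9.82, 9.93, 10.31 and 9.40 in R6/2 and 10.41, 10.55, 10.03 and 10.52 in wild-type in M.C. Its Mith arrays had 10.11, 10.21 and 9.99 in R6/2 and 9.91, 10.41 and 10.89 in wild-type. Groups overlapped in both cohorts, and the difference of -0.42 ± 0.14 (95% interval -0.72 to -0.12) was not called (limma adjusted p = 0.144). Without wild-type replicate 5, its lowest wild-type array, it was -0.53 (adjusted p = 0.0284). The mean of both probe sets stood at 68.8% of wild-type (-0.54 ± 0.11, limma adjusted p = 0.0146).

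Aldoc encodes aldolase C, the glycolytic aldolase of brain and a common astrocyte marker. Its brightest probe set, 1451461_a_at, had 11.23, 11.67, 11.57 and 11.31 in R6/2 and 11.66, 11.67, 11.95 and 12.04 in wild-type in M.C, and 11.80, 11.78 and 11.53 in R6/2 and 11.59, 11.97 and 11.90 in wild-type in Mith. Most R6/2 arrays lay toward the low end of the wild-type range or under it. The difference, -0.27 ± 0.09 (95% interval -0.47 to -0.07, n = 7 each), was not called (limma adjusted p = 0.154), except without wild-type replicate 5 (-0.33, adjusted p = 0.0490). The second probe set, 1424714_at, was at -0.09 ± 0.07 (adjusted p = 0.584).

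Gja1 encodes connexin 43, the main gap junction protein of astrocytes, and was lower on all 6 of its probe sets, 3 of them called. For 1415801_at the M.C arrays had 6.92, 6.89, 6.79 and 7.35 in R6/2 and 7.94, 7.95, 8.23 and 7.79 in wild-type. The Mith arrays had 7.81, 7.91 and 7.64 in R6/2 and 7.98, 8.14 and 8.36 in wild-type. No R6/2 array reached the lowest wild-type array of its cohort. At -0.73 ± 0.12 (n = 7 each, limma adjusted p = 0.00339) this was the largest difference among the 23 probe sets and the only one past an adjusted p of 0.01. It was called with each array left out in turn and was -0.52 ± 0.13 with the Actb covariate (adjusted p = 0.127).

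The brighter Gja1 probe set 1437992_x_at, which the platform marks as able to cross-hybridise, showed the same pattern in M.C. It had 9.57, 9.79, 9.52 and 9.38 in R6/2 and 10.33, 10.02, 10.34 and 10.27 in wild-type there, with no overlap. In Mith it had 10.57, 10.20 and 10.43 in R6/2 and 10.50, 10.53 and 10.67 in wild-type, where the groups overlapped through R6/2 replicate 5. The difference was -0.46 ± 0.10 (limma adjusted p = 0.0180), called with each array left out, and -0.53 ± 0.12 with the Actb covariate (adjusted p = 0.0919). Another called probe set, 1438650_x_at, was at -0.32 ± 0.07 (adjusted p = 0.0267). Its call was lost without R6/2 replicate 1 or 3 or wild-type replicate 2, 3, 4 or 7, with adjusted p between 0.0601 and 0.0717.

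The other 3 Gja1 probe sets were not called over both cohorts. The representative 1415800_at had 7.55, 7.22, 7.72 and 7.37 in R6/2 and 8.23, 8.11, 8.01 and 8.38 in wild-type in M.C, a clear gap. Its Mith arrays, 8.94, 8.36 and 8.52 in R6/2 and 8.40, 8.72 and 9.21 in wild-type, were mixed. The difference was -0.48 ± 0.13 (limma adjusted p = 0.0669). It was called with array weights (adjusted p = 0.0160), without R6/2 replicate 5 (0.0192) and without wild-type replicate 5 (0.0108). With the Actb covariate it was -0.29 ± 0.16 (adjusted p = 0.511). The other pair, 1438945_x_at and 1438973_x_at, was at -0.40 ± 0.12 (adjusted p = 0.104) and -0.20 ± 0.07 (adjusted p = 0.159). The mean over all 6 Gja1 probe sets stood at 74.2% of wild-type (-0.43 ± 0.08, limma adjusted p = 0.00614).

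Aqp4 encodes the water channel of astrocyte endfeet. For 1434449_at the M.C arrays had 7.17, 7.32, 7.18 and 6.66 in R6/2 and 7.40, 7.36, 7.84 and 7.61 in wild-type. In Mith the arrays had 7.84, 7.53 and 7.86 in R6/2 and 7.99, 7.94 and 8.58 in wild-type. The genotypes did not overlap within a cohort, though R6/2 replicate 2 and wild-type replicate 2 were close. The difference of -0.45 ± 0.12 (n = 7 each) was at the edge of the threshold (limma adjusted p = 0.0497). The call remained only without R6/2 replicate 2, wild-type replicate 5 or wild-type replicate 6. Leaving out any other array gave adjusted p between 0.0565 and 0.118, trended and robust variances gave 0.0529, and the Actb covariate gave -0.52 ± 0.15 (adjusted p = 0.192). The second probe set, 1425382_a_at, was at -0.31 ± 0.10 (adjusted p = 0.140), close in both cohorts, -0.29 in M.C and -0.33 in Mith. The mean of both stood at 77.0% of wild-type (-0.38 ± 0.10, limma adjusted p = 0.0501).

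S100b encodes a calcium-binding protein of astrocytes that some oligodendrocytes also make, and neither of its probe sets was called. The M.C arrays of 1419383_at had 8.97, 8.98, 8.64 and 8.26 in R6/2 and 8.97, 8.45, 8.44 and 8.44 in wild-type. The Mith arrays had 9.11, 8.85 and 8.99 in R6/2 and 8.88, 8.80 and 8.92 in wild-type. The genotypes were mixed in both cohorts, with wild-type replicate 1 high among the wild-type arrays. The difference was 0.13 ± 0.11 (95% interval -0.10 to 0.36, n = 7 each, limma adjusted p = 0.621), and -0.07 ± 0.12 with the Actb covariate. The second probe set, 1434342_at, was at 0.12 ± 0.09 (adjusted p = 0.555).

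**Figure D2:**
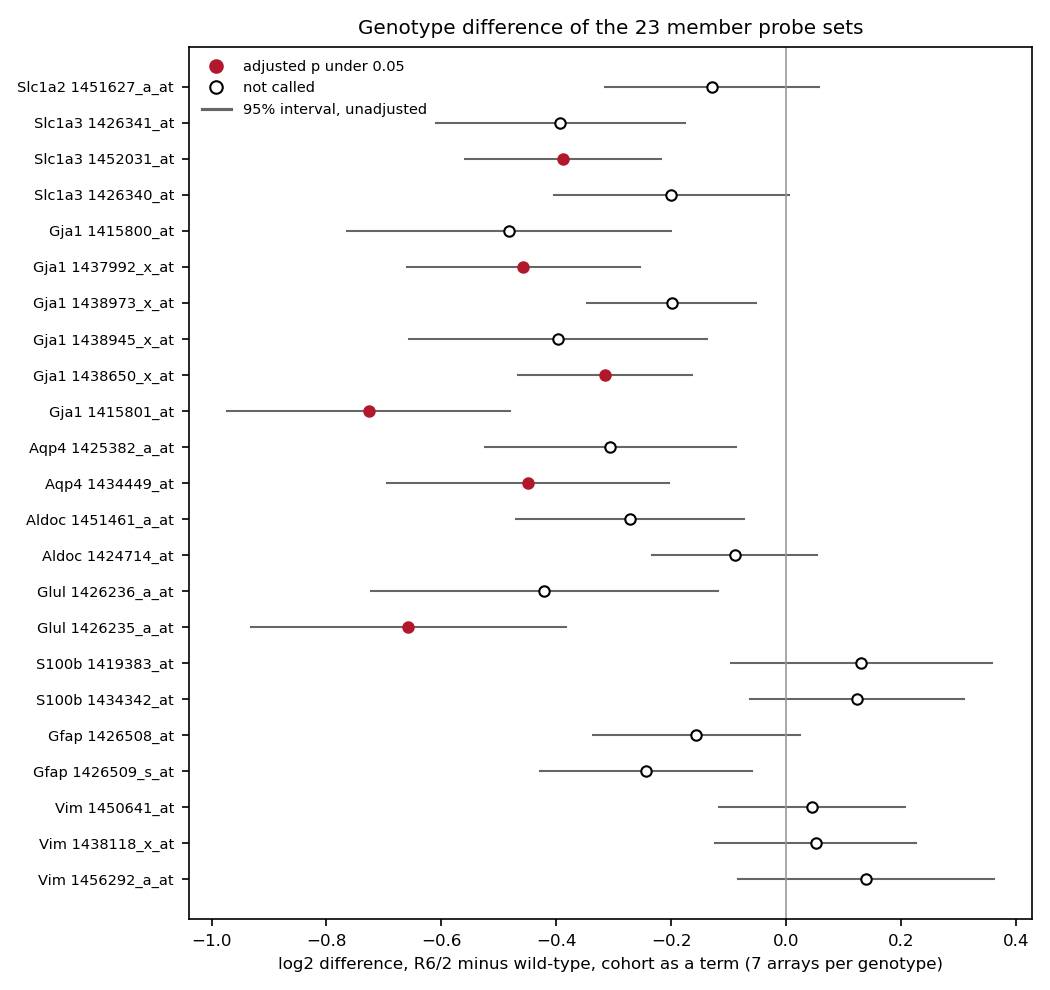
Log2 difference of R6/2 from wild-type, fitted with a cohort term, for the 23 probe sets in order of role, with unadjusted 95% intervals over 7 arrays of each genotype. The 6 filled points, called at an adjusted p under 0.05, all lie below 0 and belong to Slc1a3, Gja1, Aqp4 and Glul, and the 5 probe sets of S100b and Vim lie above 0.

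Gfap encodes the glial fibrillary acidic protein, the filament that reactive astrocytes build up. Its 1426508_at arrays had 7.96, 7.97, 7.55 and 7.83 in R6/2 and 7.91, 8.01, 8.05 and 8.07 in wild-type in M.C. In Mith they had 8.05, 7.51 and 7.59 in R6/2 and 7.85, 7.70 and 7.98 in wild-type. The genotypes overlapped in both cohorts, and the highest of all 14 arrays was wild-type replicate 4. The difference was -0.16 ± 0.09 (95% interval -0.34 to 0.02, n = 7 each, limma adjusted p = 0.414), an interval whose upper end is a rise of 0.02. The second probe set, 1426509_s_at, was at -0.24 ± 0.09 (95% interval -0.43 to -0.06, adjusted p = 0.169). With array weights, which give R6/2 replicate 4 little weight, it was called lower (-0.33, adjusted p = 0.0342). With the Actb covariate 1426508_at was at -0.14 ± 0.11 (adjusted p = 0.680) and 1426509_s_at at -0.25 ± 0.12 (adjusted p = 0.423).

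Vim encodes vimentin, the filament protein of immature and reactive astrocytes that vessel cells also make. For 1450641_at the M.C arrays had 8.06, 7.97, 7.63 and 7.60 in R6/2 and 7.78, 7.75, 7.72 and 7.98 in wild-type. The Mith arrays had 7.84, 7.74 and 7.78 in R6/2 and 7.85, 7.55 and 7.67 in wild-type. The R6/2 arrays of M.C spread on both sides of the wild-type arrays. The difference was 0.05 ± 0.08 (95% interval -0.12 to 0.21, n = 7 each, limma adjusted p = 0.838). The dim probe sets 1438118_x_at and 1456292_a_at were at 0.05 ± 0.08 (adjusted p = 0.826) and 0.14 ± 0.11 (adjusted p = 0.585). All 3 turned to between -0.09 and -0.01 with the Actb covariate.

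Within single cohorts, calls were made in M.C and none in Mith. In M.C 8 of 23 probe sets were called lower and 0 higher (limma, 4 arrays of each genotype), where 2.47% of all probe sets were called and 2.31% were called lower. They were 5 of Gja1, 2 of Slc1a3 and 1 of Glul. Gja1 1415801_at stood there at 50.2% of wild-type (-0.99 ± 0.12, adjusted p = 0.00324) and Glul 1426235_a_at at 53.6% (-0.90 ± 0.16, adjusted p = 0.0138). Leaving out R6/2 replicate 1 left 3 calls, wild-type replicate 3 left 4, and wild-type replicate 1 or 4 left 5.

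An RNA quality measure moved with genotype in the same cohort. Gapdh 3′ signal minus Gapdh 5′ signal was 0.34 ± 0.19 in R6/2 and 0.05 ± 0.06 in wild-type in M.C (SD, n = 4 each), and 0.06 ± 0.08 in R6/2 and -0.01 ± 0.06 in wild-type in Mith (SD, n = 3 each). The Actb measure was 0.58 ± 0.24 in R6/2 and 0.32 ± 0.09 in wild-type in M.C, and 0.65 ± 0.09 in R6/2 and 0.44 ± 0.20 in wild-type in Mith. The part of the Gapdh difference in the M.C calls was not tested.

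In Mith, with 3 arrays of each genotype, limma called 0 of 23, and 0% of all probe sets. An unadjusted p under 0.05 was found there for 6 of the 23, against 2008 of all 22626. Gja1 1415801_at was at 77.3% of wild-type there (-0.37 ± 0.12, adjusted p = 0.415) and Glul 1426235_a_at at 79.2% (-0.34 ± 0.12, adjusted p = 0.482). In each cohort 18 of the 23 differences were below 0, with a median of -0.33 in M.C and -0.17 in Mith. Among all probe sets 46.9% were below 0 in M.C and 49.6% in Mith. Every R6/2 array lay below every wild-type array for 10 of the 23 in M.C, against 6.33% of all probe sets, and for 4 of the 23 in Mith, against 6.34%. Those of Mith, Slc1a3 1452031_at, Gja1 1415801_at, Aqp4 1434449_at and Glul 1426235_a_at, were without overlap in M.C too (1.05% of all probe sets in both cohorts).

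The difference between cohorts was tested by the interaction of genotype with cohort. Limma called 0 of the 23, and 0% of all probe sets. An unadjusted p under 0.05 was found for 5 of the 23, against 2213 of all 22626. The interaction was -0.62 ± 0.19 for Gja1 1415801_at and -0.51 ± 0.15 for Gja1 1437992_x_at (adjusted p = 0.352 for each), and -0.56 ± 0.23 for Glul 1426235_a_at (adjusted p = 0.462). Aqp4 hardly differed between the cohorts, with interactions of 0.04 ± 0.21 and -0.05 ± 0.24. A difference between the cohorts in the falls of Gja1 and Glul was thus not shown by this test.

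**Figure D3:**
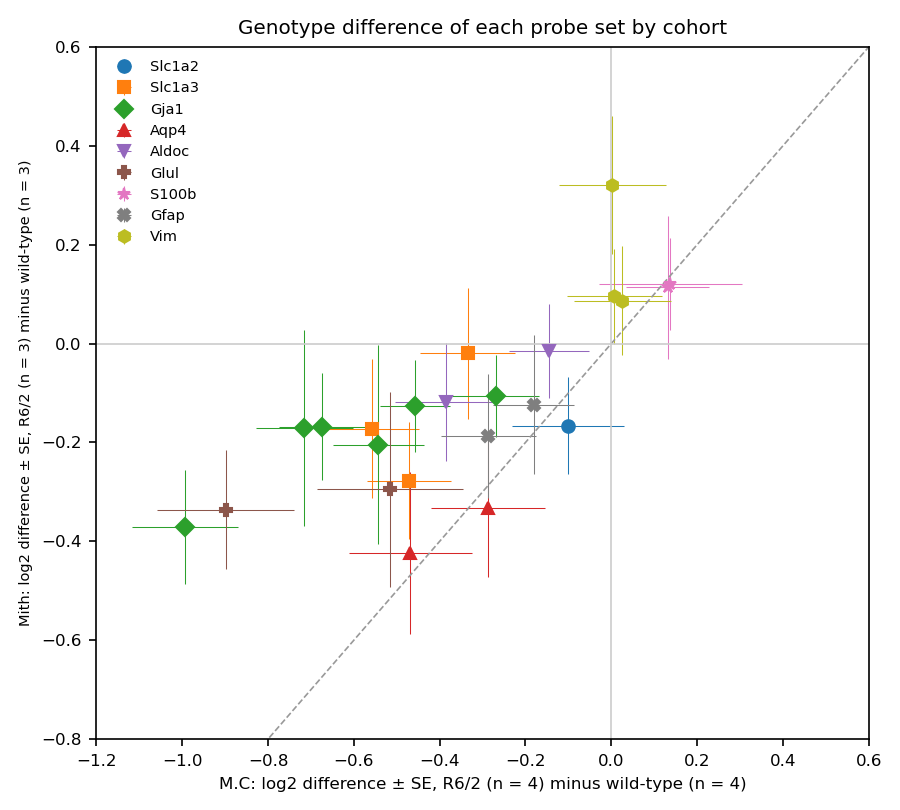
Log2 difference, R6/2 minus wild-type, of each of the 23 probe sets in M.C (horizontal, 4 arrays of each genotype) and in Mith (vertical, 3 arrays of each genotype), with bars of 1 standard error and a dashed line of equal differences. Gja1, Glul and Slc1a3 lie above the line, further below 0 in M.C, whereas both Aqp4 points lie within 1 standard error of it.

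Signals also differed between the cohorts themselves, M.C minus Mith with genotype as a term. Of the 23, 10 were called lower in M.C and 1 higher, against 17% and 15.3% of all probe sets (32.3% in either direction). All 6 Gja1 probe sets were lower in M.C, by -0.40 to -1.09. The most distant, 1438945_x_at, averaged 7.50 ± 0.33 in M.C and 8.60 ± 0.35 in Mith (SD, n = 8 and 6, adjusted p = 1.14e-05). The Glul probe sets went apart, since 1426235_a_at averaged 10.49 ± 0.55 in M.C and 9.45 ± 0.25 in Mith (1.03 ± 0.13, adjusted p = 2.96e-05), while 1426236_a_at was at -0.14 ± 0.14 (adjusted p = 0.507).

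To set the homeostatic genes against the filament genes, each array's mean over the 7 homeostatic representatives was taken less its mean over Gfap and Vim. The result is a description, with no test. It was 0.85, 1.01, 1.47 and 1.06 in R6/2 and 1.42, 1.36, 1.32 and 1.33 in wild-type in M.C. In Mith it was 1.39, 1.50 and 1.43 in R6/2 and 1.32, 1.67 and 1.78 in wild-type. In M.C 3 of 4 R6/2 arrays lay below every wild-type array, while R6/2 replicate 3 lay above all of them, and in Mith the genotypes overlapped.

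The mean was 1.24 ± 0.26 in R6/2 and 1.46 ± 0.19 in wild-type (SD, n = 7 each), -0.21 apart. It was -0.26 apart in M.C and -0.15 in Mith, and -0.20 over all probe sets of each gene. The homeostatic mean alone was 9.04 ± 0.19 in R6/2 and 9.30 ± 0.14 in wild-type, and the Gfap and Vim mean was 7.79 ± 0.18 in R6/2 and 7.85 ± 0.12 in wild-type. Homeostatic means of M.C ran from 8.77 to 9.06 in R6/2 and from 9.20 to 9.35 in wild-type, with no overlap.

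**Figure D4:**
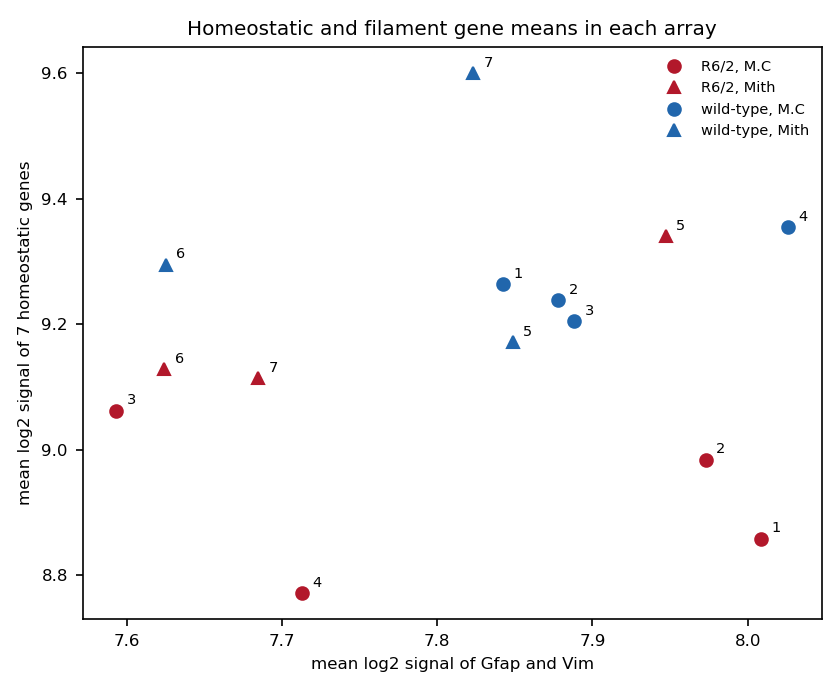
Each array's mean log2 signal of the 7 homeostatic genes (vertical) against its mean of Gfap and Vim (horizontal), R6/2 in red and wild-type in blue, circles for M.C and triangles for Mith, numbered by replicate. The 4 R6/2 circles lie at 9.06 or less and the 4 wild-type circles at 9.20 or more, while the horizontal positions of the genotypes overlap.

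Some other astrocyte genes were called lower too. A list of other genes of resting astrocytes held transporters, receptors, channels, secreted proteins, enzymes and others such as Id4, Ndrg2 and Mt1. Each gene was read by its representative probe set. Of the 38 measured genes 11 were called lower and 0 higher, where 2.08% of all genes were called lower. Differences were below 0 for 33 of the 38, against 43.8% of all genes, and above 0 for 5, none of them called. Those 5, named after their values were seen, were Fabp7 at 0.27 ± 0.18 (adjusted p = 0.530) and Mlc1, Itpr2, Slc7a11 and Slc27a1 at 0.02 to 0.05. The list's median was -0.21, and 0.01 over all genes. The 7 homeostatic members read the same way had 0 called and a median of -0.31. Htra1, a secreted serine protease, was at 74.4% of wild-type (-0.43 ± 0.09, limma adjusted p = 0.0201), and Kcnj10, the inward rectifier potassium channel Kir4.1, at 74.2% (-0.43 ± 0.10, adjusted p = 0.0300). Ntsr2, an astrocytic neurotensin receptor, was at 74.1%, Pla2g7, a secreted phospholipase, at 78.7%, and Ednrb, an endothelin receptor, at 81.6%.

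In M.C the difference was -0.42 for Kcnj10 and -0.47 for Ntsr2. In Mith it was -0.44 for Kcnj10 and -0.39 for Ntsr2, close to the M.C values. With the Actb covariate 0 of the 38 were called. There Kcnj10 was at -0.41 ± 0.13 (adjusted p = 0.241), Ntsr2 at -0.51 ± 0.12 (0.109), Ednrb at -0.26 ± 0.09 (0.260), Htra1 at -0.31 ± 0.11 (0.300) and Pla2g7 at -0.22 ± 0.09 (0.344). The count of 11 moved most without wild-type replicate 7, which left 0, R6/2 replicate 1, which left 1, and wild-type replicate 3 or R6/2 replicate 7, which left 2. It was 4 without R6/2 replicate 3 or wild-type replicate 1 or 4, and 5 without R6/2 replicate 2. Of the genes named, Htra1 lost its call without wild-type replicate 3 or 7 (adjusted p = 0.0539 and 0.0507), and the others without 5 to 7 of the 14 arrays, with adjusted p up to 0.0770.

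Reactive astrocyte genes were not called. Of 35 measured, limma called 0, near the share of all genes, 2.53% in either direction by representatives. An unadjusted p under 0.05 was found for 2 of the 35, against 1841 of all 12393 genes. Differences were above 0 for 26 of the 35 and below 0 for 9, where 43.8% of all genes were below 0. The median was 0.03, beside 0.01 for all genes. Fbln5, a matrix protein, was at -0.14 ± 0.06 (adjusted p = 0.275), Hspb1, a small heat shock protein, at -0.11 ± 0.05 (adjusted p = 0.288) and Ptgs2, the inducible cyclooxygenase, at 0.16 ± 0.08 (adjusted p = 0.357). The list's differences ran from -0.14 to 0.16, and those of the other homeostatic genes from -0.48 to 0.27. These lists differed in signal. Array means ran from 6.47 to 6.56 over the reactive list and from 8.53 to 9.05 over the other homeostatic list, both genotypes together. Deposited array medians were 7.07 to 7.17. Whether low signal narrowed the reactive differences was not tested. No other setting or left-out array gave a called gene in this list.

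Genes that share a pathway or a family with the members were also read by representatives, of which 2.08% over all genes were called lower. Of 14 other genes of glutamate and glutamine handling 1 was called lower, Slc38a2, an amino acid carrier that takes up glutamine, at 74.0% of wild-type (-0.43 ± 0.11, limma adjusted p = 0.0405). Its call was lost without R6/2 replicate 1, 3, 6 or 7 or wild-type replicate 1, 2, 3, 4 or 7, with adjusted p up to 0.0871, and with the Actb covariate it was -0.56 ± 0.13 (adjusted p = 0.0982). Slc1a4, a neutral amino acid transporter of the family of GLAST, was at -0.24 ± 0.07 on its representative (adjusted p = 0.0823). Its 3 probe sets did not share a sign, with differences from -0.24 to 0.24. Other connexins, pannexins, aquaporins and their partners had 0 of 12 called by limma, with a median of 0.00. An unadjusted p under 0.05 was found for 2 of the 12, against 1841 of all 12393 genes.

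Among 11 other intermediate filament genes 2 were called lower, against 2.08% of all genes, and both encode neurofilaments. Nefh, the heavy chain, was at 70.3% of wild-type (-0.51 ± 0.09, limma adjusted p = 0.00460), and Nefm, the medium chain, at 72.0% (-0.47 ± 0.12, adjusted p = 0.0377). Nefh was also called with the Actb covariate (-0.59 ± 0.11, adjusted p = 0.0372), whereas Nefm was not (adjusted p = 0.289). Nefm lost its call without R6/2 replicate 1, 6 or 7 or wild-type replicate 1, 3, 4, 6 or 7, with adjusted p up to 0.0837. Limma called 0 of 14 glycolytic genes beside Aldoc and 0 of 8 genes of the S100 family. In each list 0 had an unadjusted p under 0.05, against 1841 of all 12393 genes.

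**Figure D5:**
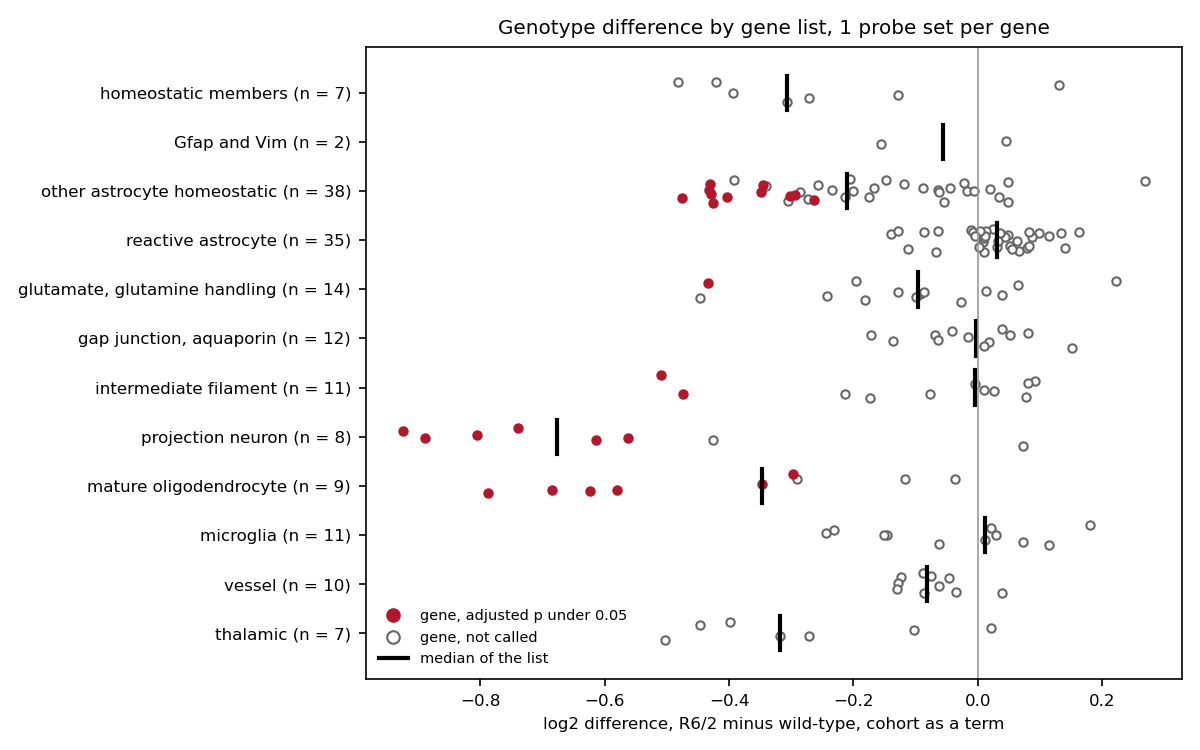
Log2 difference of R6/2 from wild-type, fitted with a cohort term, of each gene of 12 gene lists, read by 1 probe set per gene, with called genes filled and a bar at each list's median. The other astrocyte homeostatic genes centre on -0.21 with 11 called, and the reactive astrocyte genes centre on 0.03 with none called.

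Markers of projection neurons and of oligodendrocytes held calls as well. Projection neuron markers were called lower in 6 of 8 genes and mature oligodendrocyte markers in 6 of 9, against 2.08% of all genes, with medians of -0.68 and -0.35. Array means of the oligodendrocyte list ran from 9.08 to 9.35 in R6/2 and from 9.39 to 9.88 in wild-type in M.C, and from 9.68 to 10.05 in R6/2 and from 10.23 to 10.35 in wild-type in Mith. Limma called 0 of 11 microglia markers (3 at an unadjusted p under 0.05), 0 of 10 vessel markers (1) and 0 of 5 ependyma and choroid plexus markers (0). Of all 12393 genes 1841 had such an unadjusted p. Thalamic markers, of bordering tissue, had 0 of 7 called (2), with a median of -0.06 in M.C and -0.66 in Mith. Their array means in Mith ran from 7.70 to 8.30 in R6/2 and from 8.22 to 9.03 in wild-type. In M.C those means ran from 7.15 to 7.80 in R6/2 and from 7.28 to 7.66 in wild-type. Between the cohorts, 6 of 7 thalamic markers were called lower in M.C (median -0.99), and 9 of 9 mature oligodendrocyte markers (median -0.81). Of all genes 14.9% were called lower in that comparison. What part the make-up of the dissected tissue had in the astrocyte values was not tested.

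The members varied together only in part once genotype and cohort means were removed. Over the 14 arrays the Pearson correlation of 2 probe sets of the same gene had a median of 0.45 over 26 pairs, ranging from -0.58 to 0.81. The highest was between Slc1a3 1426341_at and 1452031_at, and the lowest between Gja1 1438973_x_at and 1415801_at. R6/2 replicate 4, the array that stood apart, was the lowest of the 14 on both Slc1a3 probe sets (8.32 and 8.22). It was also lowest on Gja1 1438973_x_at (7.53), but the highest M.C R6/2 array on 1415801_at (7.35). Its part in these correlations was not tested. Pairs of different homeostatic genes had a median of 0.32 over 131 pairs, and pairs of a homeostatic gene with Gfap or Vim had 0.24 over 90. Arrays share hybridisation and RNA quality, so these values describe the arrays and carry no test.

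The genes most like a member were ranked by Pearson correlation over the 14 arrays after each cohort was centred, again as a description. For Gja1 they were Cacnb2 (0.951), Ptp4a2 (0.924) and Ubqln1 (0.923), and without R6/2 replicate 4 these were 0.956, 0.946 and 0.922. For Gfap they were Tprkb (0.826), Cldn5 (0.808) and Wipi1 (0.802), with 0.823, 0.842 and 0.797 without that array. For Slc1a2 they were Rgs20 (0.888), Gfi1b (0.876) and Chst2 (0.873), with 0.820, 0.788 and 0.785 without it. Genotype means were left in these values, so the measure itself favours genes whose genotype difference follows that of the member.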

How the data were processed

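The 14 arrays were grouped by the genotype that the labels give, and the cohort was read from the start of the sample titles. The values deposited are signals on the log2 scale, 1 per probe set, a unit read from its values, which ran from 2.96 to 14.5. The sources used here do not give how the authors summarised and normalized the scans, and a steady bias of that step would stay in the values. The deposited medians spanned 0.108, and arrays were shifted to share a median. Leaving out 64 control probe sets, 22626 were tested.

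Gene symbols are those of the platform annotation, updated by gene ID for 20351 probe sets, while 29 kept the platform's name. A gene's representative was its probe set of highest mean, with those marked as cross-hybridising passed over where another existed. The positions of probe sets within transcripts were not used here.

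Each probe set was tested for genotype in limma 3.58.1 (R 4.3.3, two-sided moderated test, Benjamini-Hochberg adjusted over all probe sets, called under 0.05), with cohort as a term, within each cohort, and as an interaction with cohort. The fit was tested on simulated data with 200 changed probe sets. All probe sets of the members were named. From 13 other gene lists and from the genes most correlated with Slc1a2, Gja1 and Gfap, names followed a fixed order of p or correlation, and only some of those it allows are printed. The members and lists were chosen with earlier results of these data known. In all, the lists held 216 genes, 179 of them measured. Alternatives were the deposited scale, quantile normalization, no cohort term, trended and robust variances, array weights, brighter probe sets, an Actb 3′ minus 5′ covariate, averaging the probe sets of a gene, a threshold of 0.01 and leaving out each array. The number of arrays limits the precision, and no detection calls or raw scans were used.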

Additional observations from a re-analysis of the deposited data

Results flagged for a closer look

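In 3 cases 1 array lay far from the other 6 of its genotype once cohort means were removed, judged by its gap relative to the whole range, over 46 groups of 7 arrays for which chance gives about 1 in 20. For Slc1a2 1451627_a_at R6/2 replicate 4 stood at 0.40 above its cohort mean, and the other R6/2 arrays lay between -0.33 and -0.04. For Slc1a3 1426340_at the same array stood at -0.54, and the other R6/2 arrays lay between -0.11 and 0.04. For S100b 1419383_at wild-type replicate 1 stood at 0.33, with the other 6 of that genotype between -0.21 and -0.01. The Slc1a2 and S100b differences keep their signs without these arrays.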

How the results depend on the processing

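The count of 6 called members was 0 without a cohort term and 0 with the Actb covariate, 10 with array weights and 1 at a threshold of 0.01, and it ran from 4 to 11 with 1 array left out (11 without wild-type replicate 5). Over all probe sets the 578 calls became 100 without a cohort term, 1333 with array weights, 56 with the Actb covariate and 131 at 0.01, and 280 to 879 on leaving out single arrays. The members called then ran from 3 to 8 in M.C, from 0 to 0 in Mith and in the interaction, and from 11 to 13 between the cohorts. The 11 other astrocyte genes called lower became 7 after quantile normalization and 0 without a cohort term, with the Actb covariate or at 0.01, and ran from 0 to 15 with 1 array left out. The count of reactive genes ran from 0 to 0, and the homeostatic minus Gfap and Vim level from -0.27 to -0.16. Of 489 alternative values of member probe sets, 435 kept sign and side of the threshold, 30 lost a call, 19 gained one and 5 turned sign, all with the Actb covariate: Slc1a2 to 0.040, S100b 1419383_at to -0.074 and Vim to -0.087, -0.020 and -0.014. Of the 6 called probe sets 4 kept their call with each array left out. Causes were not tested. No paired analysis was possible because the labels give no replicate numbers shared by the genotypes.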
